A study of Mus musculus with 12 samples.

Results

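Tsc22d3, Zbtb16, Klf9, Klf15, Sgk1, Ddit4, Dusp1, Errfi1 and Zfp36, a set of regulators that glucocorticoids are known to induce, were followed in the liver and the duodenum of mice given corticosterone (CORT), the main glucocorticoid of rodents. They were taken by gene name and are 9 of the 55416 genes in each of the tables of TPM. TPM is transcript abundance scaled to about the same total in every library. Male C57BL6/J mice, 8 weeks old at the start, were injected under the skin each day with CORT at 40 mg/kg, or with vehicle (Veh), over 8 weeks. RNA was sequenced from 3 CORT and 3 Veh samples of each tissue, giving 12 libraries named here CORT1 to CORT3 and Veh1 to Veh3. The duodenum samples carry the label intestine. The labels call the samples biological replicates, and p-values measure the spread between these samples. Whether the liver and duodenum samples with the same number came from the same mouse is not stated, so the 12 libraries were treated as independent.

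Glucocorticoids enter the cell and bind the glucocorticoid receptor, a transcription factor that then moves to the nucleus and binds DNA at glucocorticoid response elements (GREs). Many of its best known targets are themselves regulators that restrain other pathways. Tsc22d3 (also called GILZ) blunts inflammatory transcription factors, Zbtb16 (PLZF) is a zinc finger repressor, and Klf9 and Klf15 are Krüppel-like transcription factors, the latter a driver of amino acid breakdown and glucose production in the liver. Sgk1 is a kinase that promotes sodium uptake across epithelia. Ddit4 (REDD1) inhibits the growth kinase complex mTORC1, Dusp1 removes phosphate from MAP kinases, Errfi1 (MIG6) inhibits the EGF receptor, and Zfp36 (tristetraprolin) speeds the decay of mRNAs rich in AU elements.

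Of the 9 regulators, 4 rose under CORT in the liver (Zbtb16, Ddit4, Dusp1 and Sgk1) and 2 in the duodenum (Zbtb16 and Tsc22d3), while Klf9 and Klf15 were not called in either tissue. Zbtb16 was the one called in both, with ratios of the group means of 8.20 in the liver and 24.2 in the duodenum. A gene was called where limma on log2(TPM + 1) gave a Benjamini-Hochberg adjusted p of 0.05 or less, over all genes that averaged 1 TPM or more in one of the groups, and a fold change above 1.5. On that rule 4.91% of 11699 genes tested in the liver were called higher and 2.01% lower, and in the duodenum 1.23% of 13607 were called higher and 0.919% lower. No regulator was called lower by limma in either tissue, and at an unadjusted p under 0.05 this count was 1 of 9 in the liver (Zfp36) and 0 of 9 in the duodenum, beside 1060 of 11699 and 1432 of 13607 genes tested. The median log2 fold change of the 9 regulators was 1.18 in the liver, beside 0.08 over all genes tested, and 1.06 in the duodenum, beside -0.01. The regulators and all gene lists below were chosen with earlier results of these data known. Their counts and medians beside all genes are therefore descriptions. All 9 passed the filter on low values in both tissues, but Zbtb16 passed it in the duodenum only through the CORT group, so that its direction there was fixed by the filter. With no filter on low values, Zbtb16 was the only one of the 9 still called, in the liver and in the duodenum alike. Over all genes, 283 of 23316 and 52 of 24876 were then called.

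**Figure D1:**
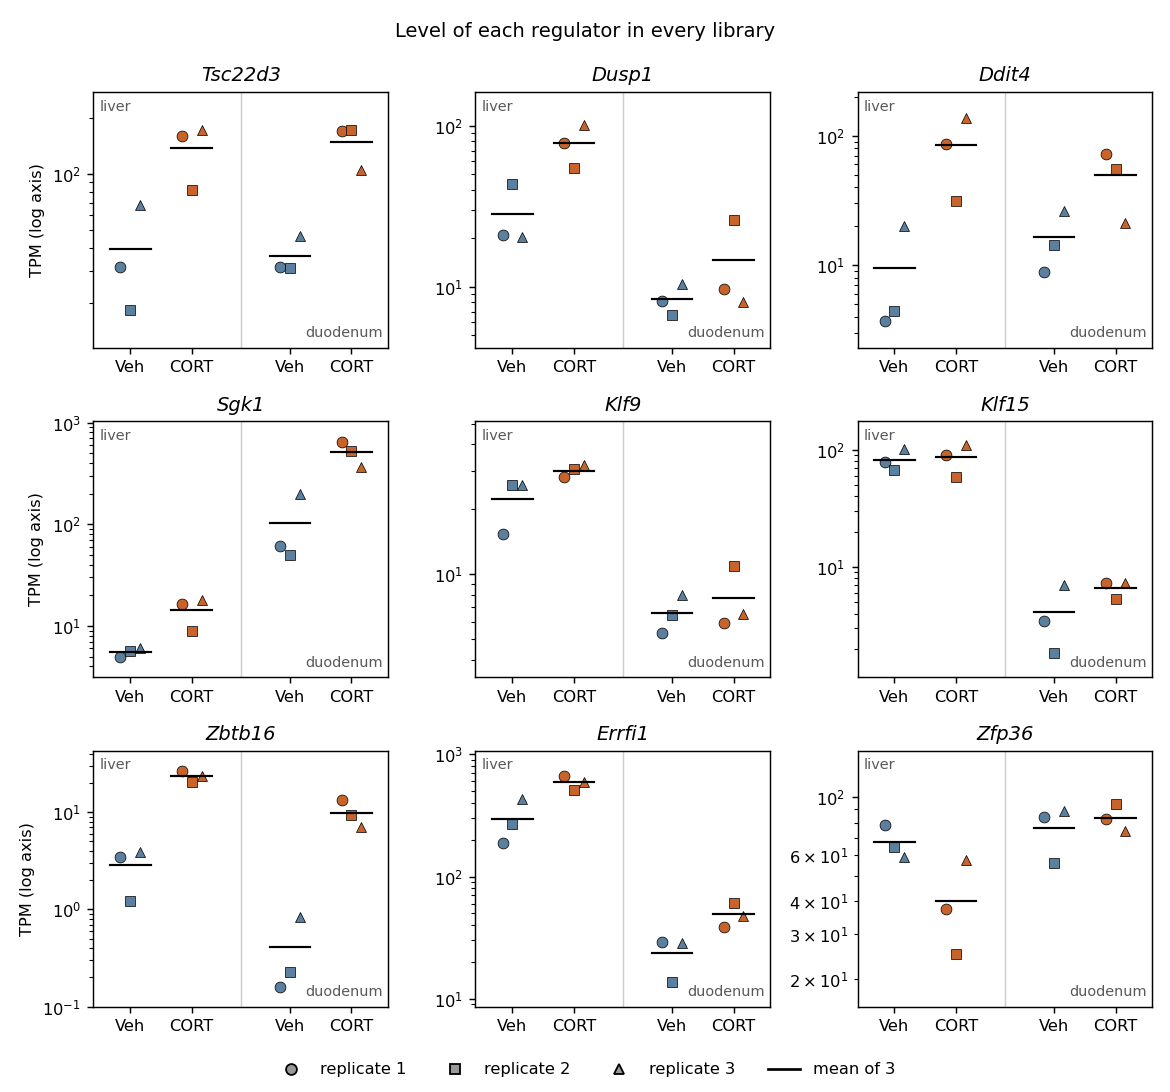
TPM (log axis, with its own range for each gene) of the 9 regulators in the 12 libraries, with blue symbols for Veh, orange for CORT, a shape for each replicate number and a line at the mean of 3. Zbtb16 separates the groups in both tissues (liver 1.22 to 3.89 against 20.38 to 26.75 TPM), whereas Klf15 overlaps between groups in both.

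The proximal promoters of the 4 regulators whose upstream sequence held a GRE arm or a cAMP response element are shown here, because these are the sites through which the receptor and the cAMP pathway are known to act. RefSeq's table of start sites (GRCm38.p6) held 16 windows for 8 of the 9 regulators, each with 250 bases before the start and 50 after. The motifs searched on both strands were the full GRE (AGAACA, any 3 bases, then TGTTCT), a single GRE arm (AGAACA or TGTTCT, which every full GRE contains) and the cAMP response element (TGACGTCA). Each sequence below runs 5′ to 3′ on the strand of the gene, ends before the first annotated exon, and has these motifs in capitals. That of Sgk1 lies at chr10:21993640-21993889 on the plus strand, that of Tsc22d3 at chrX:140600660-140600772 on the minus strand, that of Dusp1 at chr17:26508520-26508722 on the minus strand, and that of Errfi1 at chr4:150854820-150855069 on the plus strand.
Sgk1: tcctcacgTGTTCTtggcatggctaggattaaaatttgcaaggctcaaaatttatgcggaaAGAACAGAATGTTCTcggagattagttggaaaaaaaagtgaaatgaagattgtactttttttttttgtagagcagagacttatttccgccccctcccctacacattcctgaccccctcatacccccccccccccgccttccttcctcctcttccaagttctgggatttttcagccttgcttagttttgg
Tsc22d3: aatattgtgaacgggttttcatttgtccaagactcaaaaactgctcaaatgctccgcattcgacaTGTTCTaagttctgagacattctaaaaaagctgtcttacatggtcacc
Dusp1: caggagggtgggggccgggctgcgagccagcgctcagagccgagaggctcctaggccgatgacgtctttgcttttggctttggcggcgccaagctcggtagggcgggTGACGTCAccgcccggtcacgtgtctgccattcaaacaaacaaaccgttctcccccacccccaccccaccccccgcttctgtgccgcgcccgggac
Errfi1: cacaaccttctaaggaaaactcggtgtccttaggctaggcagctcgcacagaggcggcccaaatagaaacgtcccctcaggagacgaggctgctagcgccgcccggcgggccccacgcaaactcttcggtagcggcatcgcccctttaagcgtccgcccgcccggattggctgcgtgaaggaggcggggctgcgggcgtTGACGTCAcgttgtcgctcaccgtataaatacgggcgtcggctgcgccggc
The full GRE stood in 1 of the 16 windows, 189 bases upstream of a start site of Sgk1, and in 3 of 32851 windows of that length over all genes (0.00913%). A single arm stood in 4 of the 16 windows, against 19.0% of all windows. Of these 4, 3 belonged to Sgk1 and the other lay 185 bases upstream of a start site of Tsc22d3. Sgk1 had 6 of the 16 windows, Tsc22d3 had 3 and Errfi1 had 2, and 1 window of each is printed above. A gene with more windows had more places for a match. The cAMP response element stood in 2 of the 16, against 1.79% of all, 143 bases upstream of the start of Dusp1 and 51 bases upstream of a start of Errfi1. A match of letters is a description of the sequence and not a measured binding site, and a window without a match says nothing of more distant elements.

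Tsc22d3 (ENSMUSG00000031431), the first of the transcriptional regulators, rose in the duodenum. Its duodenal level was 31.24, 30.98 and 46.04 TPM in Veh1 to Veh3 and 169.79, 172.22 and 105.26 TPM in CORT1 to CORT3. Every CORT library thus stood above every Veh library, with CORT3 the lowest of its group, and the mean went from 36.1 ± 8.62 to 149 ± 38.0 TPM (SD, n = 3 each). The log2 fold change was 2.01 (SE 0.25, 95% interval 1.42 to 2.59, limma adjusted p = 0.0185). Leaving out Veh2, CORT1 or CORT2 took the adjusted p to 0.0582, 0.0582 and 0.0604, and the call was lost. In the liver the Veh libraries held 31.34, 18.36 and 68.02 TPM and the CORT libraries 160.53, 82.05 and 173.57 TPM. The groups did not overlap there either, although Veh3 came close to CORT2. The liver log2 fold change was 1.92 (SE 0.49, 95% interval 0.77 to 3.07), and it missed the threshold (limma adjusted p = 0.0623). Without Veh3, the liver value was 2.41 and was called (adjusted p = 0.0386).

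Zbtb16 (ENSMUSG00000066687) rose in both tissues from a low level. Its liver level was 3.50, 1.22 and 3.89 TPM in the Veh libraries and 26.75, 20.38 and 23.45 TPM in the CORT libraries, a mean of 2.87 ± 1.44 against 23.5 ± 3.19 TPM (SD, n = 3 each). The lowest CORT library was far above the highest Veh library. The liver log2 fold change was 2.74 (SE 0.30, 95% interval 2.02 to 3.46, limma adjusted p = 0.00597). In the duodenum the Veh libraries held 0.16, 0.23 and 0.84 TPM and the CORT libraries 13.29, 9.43 and 7.01 TPM. All 3 Veh libraries were below 1 TPM there, so the ratio of means rests on values near 0. The log2 fold change was 2.94 (SE 0.28, 95% interval 2.29 to 3.59, limma adjusted p = 0.00621). With 0.1 in place of 1 added to TPM, the duodenal value was 4.49 (limma adjusted p = 0.0123). The liver value was then 3.14 (limma adjusted p = 0.00754). Zbtb16 was called without any one of the 6 libraries in either tissue, with adjusted p between 0.00807 and 0.0244 in the liver and between 0.0117 and 0.0334 in the duodenum.

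Klf9 (ENSMUSG00000033863) moved little. Its liver level was 15.29, 25.97 and 25.84 TPM in Veh1 to Veh3 and 28.13, 30.66 and 31.98 TPM in CORT1 to CORT3, without overlap but with Veh2 and Veh3 close to CORT1. The log2 fold change of 0.46 (SE 0.21, 95% interval -0.05 to 0.96) was not called (limma adjusted p = 0.230). In the duodenum Klf9 stood at 5.31, 6.48 and 7.96 TPM in Veh and at 5.90, 10.85 and 6.55 TPM in CORT, and the groups overlapped. The duodenal value was 0.18 (SE 0.24, 95% interval -0.39 to 0.75, limma adjusted p = 0.707). A liver change of up to 0.96 on the log2 scale lay within the interval.

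Klf15 (ENSMUSG00000030087) overlapped between the groups in both tissues. Its liver level was 78.43, 67.56 and 101.13 TPM in the Veh libraries and 90.47, 58.59 and 108.82 TPM in the CORT libraries, with the lowest value of all 6 in CORT2. The log2 fold change was 0.04 (SE 0.26, 95% interval -0.57 to 0.64, limma adjusted p = 0.946). In the duodenum, where Klf15 was low, the values were 3.48, 1.84 and 7.01 TPM in Veh and 7.32, 5.33 and 7.31 TPM in CORT. CORT1 and CORT3 exceeded every Veh library there and CORT2 did not. The duodenal log2 fold change was 0.70 (SE 0.36, 95% interval -0.15 to 1.55, limma adjusted p = 0.343).

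Sgk1 (ENSMUSG00000019970), whose kinase acts on sodium transport, rose in the liver from a low level and had the highest CORT values of the 9 regulators in the duodenum. The liver libraries held 5, 5.66 and 6.02 TPM in Veh and 16.31, 8.97 and 18.08 TPM in CORT. The Veh libraries lay close together, and CORT2 was nearest to them. The mean went from 5.56 ± 0.517 to 14.5 ± 4.83 TPM (SD, n = 3 each), a log2 fold change of 1.18 (SE 0.25, 95% interval 0.59 to 1.77, limma adjusted p = 0.0388). That call held without CORT2 (adjusted p = 0.0115) and was lost without each of the other liver libraries, Veh1, Veh2, Veh3, CORT1 and CORT3, at adjusted p from 0.0739 to 0.128. In the duodenum Sgk1 stood at 61.04, 49.41 and 197.23 TPM in Veh1 to Veh3 and at 642.79, 525.49 and 365.43 TPM in CORT1 to CORT3. The groups did not overlap, but Veh3 stood far above both other Veh libraries. The mean went from 103 ± 82.2 to 511 ± 139 TPM, and the log2 fold change of 2.55 (SE 0.51, 95% interval 1.35 to 3.75) missed the threshold (limma adjusted p = 0.0596). Without Veh3 the log2 fold change was 3.16, which was called (adjusted p = 0.0148).

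Ddit4 (ENSMUSG00000020108), the inhibitor of mTORC1, rose in the liver with the widest interval of the 9 regulators. Its liver level was 3.68, 4.42 and 20.27 TPM in Veh1 to Veh3 and 85.92, 31.42 and 136.29 TPM in CORT1 to CORT3. No CORT library fell as low as Veh3, although both groups were widely spread. The mean went from 9.46 ± 9.37 to 84.5 ± 52.4 TPM (SD, n = 3 each), and the log2 fold change was 3.16 (SE 0.71, 95% interval 1.49 to 4.83, limma adjusted p = 0.0448). The call was lost without Veh1, Veh2, CORT1 or CORT3, at adjusted p from 0.0983 to 0.130. In the duodenum the Veh libraries held 8.89, 14.36 and 26.19 TPM and the CORT libraries 72.61, 55.22 and 21.37 TPM. CORT3 lay below Veh3, so that the groups overlapped. The duodenal log2 fold change was 1.5 (SE 0.52, 95% interval 0.27 to 2.72) and was not called (limma adjusted p = 0.186).

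Dusp1 (ENSMUSG00000024190), the MAP kinase phosphatase, rose in the liver. Veh1 to Veh3 held 20.78, 43.21 and 20.32 TPM of it, and CORT1 to CORT3 77.89, 54.38 and 101.28 TPM. Veh2 was the highest of its group and CORT2 the lowest of its own, with no overlap. The liver log2 fold change was 1.48 (SE 0.34, 95% interval 0.68 to 2.29, limma adjusted p = 0.0480), close to the threshold, and it was called without Veh2 but not without Veh1, Veh3, CORT1, CORT2 or CORT3, at adjusted p from 0.0591 to 0.148. In the duodenum the values were 8.18, 6.66 and 10.45 TPM in Veh and 9.68, 25.99 and 8.05 TPM in CORT. CORT2 alone stood above the Veh libraries. The duodenal log2 fold change was 0.57 (SE 0.41, 95% interval -0.39 to 1.52, limma adjusted p = 0.487).

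Errfi1 (ENSMUSG00000028967), the EGF receptor inhibitor, had similar fold changes in both tissues and was called in neither. The liver libraries held 189.65, 270.81 and 429.50 TPM in Veh and 667.69, 512.48 and 591.67 TPM in CORT. All CORT libraries were above all Veh libraries, with Veh3 again the highest of the controls. The liver log2 fold change was 1.06 (SE 0.29, 95% interval 0.38 to 1.75, limma adjusted p = 0.0746), and of the fits that left out 1 library it was called only in that without Veh3 (1.37, adjusted p = 0.0376). In the duodenum Errfi1 stood at 29.15, 13.77 and 28.39 TPM in Veh and at 38.98, 61.11 and 47.17 TPM in CORT. The groups were apart there too, and the log2 fold change was 1.06 (SE 0.31, 95% interval 0.34 to 1.79, limma adjusted p = 0.137).

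Zfp36 (ENSMUSG00000044786), which promotes mRNA decay, was the one regulator with lower liver values under CORT. Its liver level was 78.52, 64.59 and 59.05 TPM in the Veh libraries and 37.21, 25.14 and 57.58 TPM in the CORT libraries. The groups did not overlap, but CORT3 lay just below Veh3. The log2 fold change was -0.81 (SE 0.29, 95% interval -1.49 to -0.13) and was not called (limma adjusted p = 0.138). Without CORT3 it was -1.10 and was called (adjusted p = 0.0460). In the duodenum the levels were 84.31, 56.05 and 88.91 TPM in Veh and 82.65, 94.41 and 74.06 TPM in CORT, with overlap. The duodenal log2 fold change was 0.15 (SE 0.20, 95% interval -0.33 to 0.63, limma adjusted p = 0.712).

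Counted over the regulators, every CORT library stood above every Veh library for 7 of 9 in the liver, where 20.6% of all genes tested did so, and for 4 of 9 in the duodenum, where 12.2% did. Among the 4 was Zbtb16, whose direction in the duodenum was fixed by the filter. Every CORT library stood below every Veh library for 1 of 9 in the liver (Zfp36), beside 11.6% of all genes tested, and for 0 of 9 in the duodenum, beside 14.3%. With 3 libraries on each side, the smallest two-sided p of an exact permutation test on 1 gene is 0.1.

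The question of whether the regulators responded differently in the tissues was asked with a treatment by tissue term fitted over the 12 libraries, as the log2 fold change in the duodenum minus that in the liver. None of the 9 was called at an adjusted p of 0.05 or less, while 3.61% of 14806 genes tested were, and 1 of the 9 (Zfp36) had an unadjusted p of 0.05 or less, as had 2712 of the 14806. The difference for Zfp36 was 0.96 (SE 0.38, 95% interval 0.12 to 1.79, limma adjusted p = 0.210). That of Sgk1 was 1.36 (SE 0.63, 95% interval -0.02 to 2.75, limma adjusted p = 0.280), in the direction of a larger duodenal response. Without the duodenal Veh3 library the Sgk1 difference was 1.97 and was called (adjusted p = 0.0351). Ddit4 differed by -1.67 (95% interval -3.83 to 0.49, limma adjusted p = 0.406) and Dusp1 by -0.92 (95% interval -2.21 to 0.37, limma adjusted p = 0.450), both in the direction of a larger liver response. For Tsc22d3, Zbtb16 and Errfi1 the differences were 0.09, 0.20 and 0.00, with 95% intervals of -1.25 to 1.42, -0.77 to 1.18 and -1.01 to 1.02. These intervals do not show equal responses, since each admits a difference of at least 1 on the log2 scale. The Zbtb16 difference also changed with the pseudocount, the value added to TPM before the log. With 0.1 in place of 1 it was 1.35, outside the interval above, and was not called (limma adjusted p = 0.369). Klf9 differed by -0.27 (95% interval -1.03 to 0.48) and Klf15 by 0.67 (95% interval -0.40 to 1.73).

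**Figure D2:**
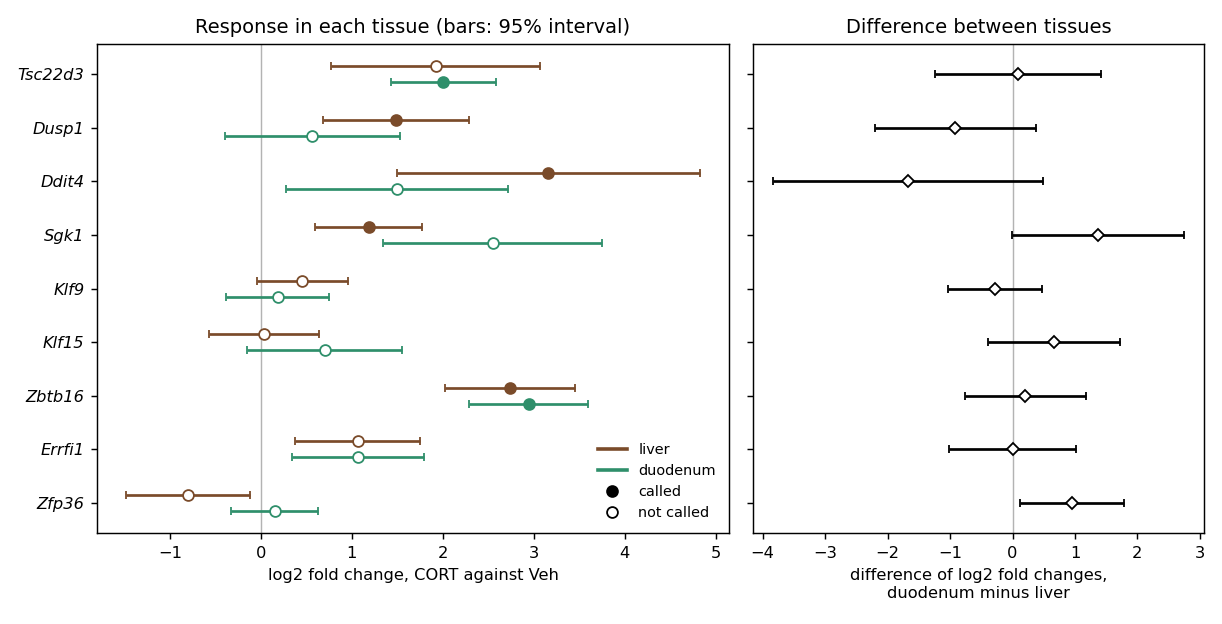
Left, log2 fold change of CORT against Veh for each regulator with its 95% interval, brown for the liver and green for the duodenum, filled where called; right, the difference of these fold changes, duodenum minus liver, with its 95% interval. The interval of the difference covers 0 for 8 of the 9 regulators, the exception being Zfp36 (0.12 to 1.79), which was not called after adjustment.

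The regulators' levels in Veh animals were set side by side between the tissues. These come from separate tables, so the TPM levels were not tested. Sgk1 was 18.4 times higher in the duodenum, with means of 103 against 5.56 TPM. Ddit4 was 1.74 times higher there (16.5 against 9.46 TPM). The reverse held for Klf15 (20.04 times higher in the liver), Errfi1 (12.5 times), Zbtb16 (7 times), Klf9 (3.40 times) and Dusp1 (3.33 times). Tsc22d3, at 39.2 TPM in the liver and 36.1 TPM in the duodenum, and Zfp36, at 67.4 and 76.4 TPM, were at like levels. Among Veh liver libraries the order by mean was Errfi1, Klf15, Zfp36, Tsc22d3, Dusp1, Klf9, Ddit4, Sgk1 and Zbtb16. Of the neighbours in this order, the first pair and the last pair did not overlap in TPM and each other pair did. In Veh duodenum the order was Sgk1, Zfp36, Tsc22d3, Errfi1, Ddit4, Dusp1, Klf9, Klf15 and Zbtb16. There Zfp36 stood clear of Tsc22d3, Tsc22d3 clear of Errfi1 and Klf15 clear of Zbtb16, while the other neighbours overlapped. Under CORT, Errfi1 (591 TPM) remained first by mean in the liver and Sgk1 (511 TPM) in the duodenum, each above the second gene, Tsc22d3 (139 and 149 TPM), without overlap.

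Within a group, many of the 9 regulators were highest or lowest in the same library. How often each library was highest or lowest over all genes was not counted, so this is not shown to be particular to the regulators. Among liver Veh libraries, Veh3 held the highest value of its group for 6 of 9 regulators, Dusp1, Klf9 and Zfp36 being the exceptions. CORT2 was the lowest CORT library for 8 of 9, all but Klf9, and CORT3 the highest for 7. In the duodenum Veh3 was the highest Veh library for 8 of 9, all but Errfi1, and CORT3 the lowest CORT library for 6. Per1, a clock gene that glucocorticoids also induce, stood at 2.75, 3.34 and 8.80 TPM in liver Veh1 to Veh3 and at 4.94, 5.94 and 14.12 TPM in duodenal Veh1 to Veh3, so Veh3 was the highest in both. Its responses were not called (log2 fold change 1.09, limma adjusted p = 0.131 in the liver, and 0.68, adjusted p = 0.365 in the duodenum). CORT3, the highest CORT library for most regulators in the liver, was the lowest for most in the duodenum. Over 10500 genes, the deviations of liver Veh3 and duodenal Veh3 from their group means had a correlation of -0.016. With 3 libraries per group, this cannot decide whether these samples came from the same mouse. What set the Veh3 library apart in either tissue was not tested.

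**Figure D3:**
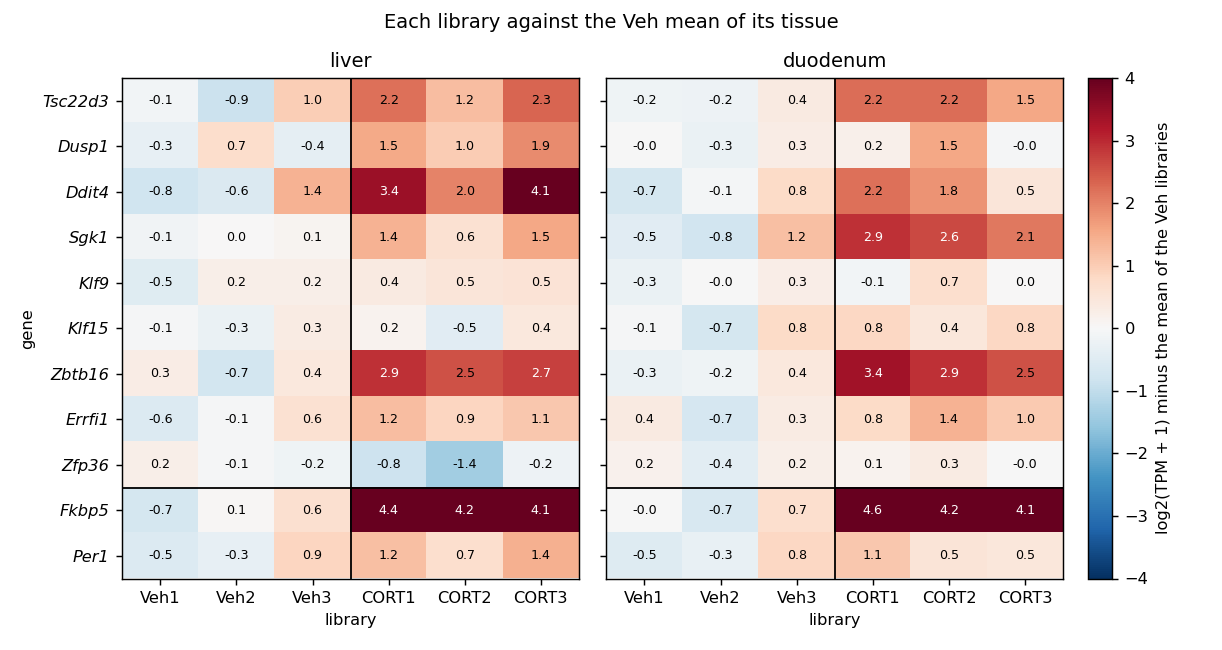
Colour and number give log2(TPM + 1) of each library minus the mean of the Veh libraries of its tissue, with genes as rows (the 9 regulators, then Fkbp5 and Per1) and libraries as columns; colours stop at 4. The Veh3 columns are mostly above 0, as for Tsc22d3 (liver, 68.02 TPM) and Sgk1 (duodenum, 197.23 TPM), and Fkbp5 is high in all 6 CORT libraries.

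Other genes known to be induced by glucocorticoids were called higher more widely than lower. This list was chosen with earlier results of these data known, so its counts and medians describe it and do not test it. Of 21 tested in each tissue, 5 were called higher in the liver and 6 in the duodenum, beside 4.91% and 1.23% of all genes tested. None was called lower. At an unadjusted p under 0.05 in limma, 13 and 12 were higher, beside 1973 of 11699 and 1186 of 13607 genes. In each tissue 1 was lower, beside 1060 and 1432 genes. The medians were 0.95 and 0.68 on the log2 scale, beside 0.08 and -0.01 over all genes tested. Fkbp5, a chaperone that restrains the receptor and is a standard readout of its activity, stood at 7.14, 12.73 and 19.51 TPM in liver Veh and at 273.03, 249.24 and 220.88 TPM in liver CORT. In the duodenum it went from 14.04, 8.68 and 23.33 TPM to 379.08, 280.69 and 251.83 TPM. Its log2 fold changes of 4.23 (limma adjusted p = 0.00178) and 4.30 (adjusted p = 0.00450) were both called. Also called higher in the liver were Cdkn1a (5.72), a cell cycle inhibitor, the metallothioneins Mt1 (3.23) and Mt2 (3.28), and Foxo1 (0.95), a transcription factor of fasting that is named here after its values were seen. In the duodenum Pdk4 (3.03), which spares glucose, Hif3a (2.32), of the hypoxia-inducible factor family, and Glul (1.27), the glutamine synthetase, were among those called higher, all these values being log2 fold changes. Hif3a passed the filter there only through the CORT group.

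Of the genes that let the hormone act, the mineralocorticoid receptor Nr3c2, which also binds CORT, fell in both tissues. It went from 2.09 ± 0.394 to 0.690 ± 0.105 TPM in the liver (log2 fold change -0.86, limma adjusted p = 0.0406) and from 9.44 ± 0.952 to 4.06 ± 0.868 TPM in the duodenum (-1.06, adjusted p = 0.0336; SD, n = 3 each). In the liver Nr3c2 was low and passed the filter only through the Veh group, so that its direction there was fixed by the filter. The glucocorticoid receptor Nr3c1 overlapped between groups in both, with log2 fold changes of -0.01 and -0.11 (limma adjusted p = 0.972 and 0.859). Hsd11b2, the enzyme that inactivates CORT, rose in the duodenum from 4.60, 4.36 and 3.28 TPM to 21.42, 14.77 and 18.93 TPM (log2 fold change 1.93, limma adjusted p = 0.00621), and stayed at or below 0.06 TPM in every liver library. In all, 0 of 3 genes tested were called higher and 1 lower in the liver, and 1 of 4 higher and 1 lower in the duodenum.

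Relatives and partners of the regulators were described by list. The TSC22 family (3 tested in each tissue), the other MAP kinase phosphatases (5 in the liver and 7 in the duodenum) and the EGF receptor family (2 and 3) had none called by limma. At an unadjusted p under 0.05 the TSC22 family held 1 gene higher and 1 lower in the liver and 1 higher in the duodenum, the phosphatases 0 and 1 lower, and the EGF receptor family 1 lower and 0. Among the SGK family and its substrates, Nedd4l, a ubiquitin ligase that Sgk1 is known to inhibit, rose in the liver (log2 fold change 1.01, limma adjusted p = 0.0183) and Scnn1a, a subunit of the epithelial sodium channel, fell (-0.66, adjusted p = 0.0445), among 6 tested. None of 7 was called in the duodenum, where 3 were higher and 1 lower at an unadjusted p under 0.05. Of 9 genes of mTORC1 control tested in each tissue, 1 was called, Sesn2 in the liver, a stress-induced inhibitor of mTORC1 (0.77, limma adjusted p = 0.0224), and 0 were below an unadjusted p of 0.05 in the duodenum. Of the other Krüppel-like factors, Klf1 fell in the liver (-0.86, adjusted p = 0.0436) among 9 tested, and Klf10 rose in the duodenum (0.87, adjusted p = 0.0469) among 10. In the list of Zfp36 relatives and AU-rich targets, Zfp36l2, a relative of Zfp36, rose in the liver (0.91, limma adjusted p = 0.0429) among 4 tested, and 0 of 3 were called in the duodenum (1 at an unadjusted p under 0.05).

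Of the immediate early genes, the class to which Dusp1 and Zfp36 also belong, 2 of 9 tested in the liver fell and limma called 0 higher (also 0 at an unadjusted p under 0.05), with a median log2 fold change of -1.02. Egr1, a zinc finger transcription factor, fell from 69.84, 28.72 and 17.88 TPM to 0.62, 1.59 and 4.65 TPM (-3.57, limma adjusted p = 0.0185), and Ier2 fell as well (-1.11, adjusted p = 0.0164). In the duodenum limma called 0 of 10, also at an unadjusted p under 0.05, and the median was 0.02. The clock genes held calls in both directions. In the liver 4 of 12 were called higher, among them Arntl at 1.96 and Cry1 at 1.84 on the log2 scale, and 2 lower, Dbp at -2.46 and Nr1d1 at -1.93. The other 2 called higher were Clock and Ciart, named after their values were seen. Arntl averaged 0.73 TPM in liver Veh. It passed the filter there only through the CORT group, so that its direction was fixed by the filter. In the duodenum 3 of 13 were called higher (Cry1, Cry2 and Bhlhe40, at 1.14, 0.95 and 1.15) and 1 lower, Nr1d1 at -2.13. Per1 was not among those called in either tissue.

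By likeness of pattern, measured as the root mean square difference of the log2 deviations from the tissue's Veh mean over the 12 libraries, the genes nearest to Tsc22d3 among 10500 were Sult1d1 (0.44), AA986860 (0.49) and Rhobtb1 (0.53), where the median gene was at 1.49. Nearest to Sgk1 were Cyp3a11 (0.47), Pdk4 (0.52) and Ces1d (0.57), with a median of 1.51. Nearest to Klf9 were Irf2bpl (0.12), Fgd6 (0.15) and Ctdspl2 (0.15), with a median of 0.43. Klf9 deviated little in any library, so many genes lay close to it.

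The libraries matched their tissue labels. The summed TPM of 6 hepatocyte markers was between 70198 and 97972 in the liver libraries and at most 44.8 in the duodenal ones, and that of 6 epithelial markers was between 3996 and 8234 TPM in the duodenum. Some markers of other cells moved with treatment. In the liver the sum of 4 endothelial markers was between 8.70 and 18.9 TPM in Veh and between 30.2 and 38.0 TPM in CORT, with Pecam1 and Stab2 called higher. The sum of 5 B and plasma cell markers in the liver was low, between 2.11 and 7.56 TPM in Veh and between 0.22 and 1.12 TPM in CORT. That of 8 T cell markers was between 2.89 and 5.04 TPM in Veh and between 0.80 and 2.88 TPM in CORT. The T cell groups thus all but met, and 0 of these 8 genes passed the filter on low values there. In the duodenum 4 of 7 smooth muscle and fibroblast markers were lower at an unadjusted p under 0.05 and limma called none, with a median log2 fold change of -0.65 and sums between 345 and 574 TPM in Veh and between 271 and 370 TPM in CORT, which overlapped. The sum of 5 B and plasma cell markers was between 828 and 1030 TPM in Veh and between 229 and 540 TPM in CORT, that of 5 erythroid markers between 119 and 247 against 366 and 706 TPM, and limma called none of these 10 genes, although 2 of the first list were lower and 5 of the second higher at an unadjusted p under 0.05. Clec4f, of the macrophage list, was called higher in the duodenum (log2 fold change 2.99), where that list's sums overlapped between groups. The epithelial sum was between 3996 and 6144 TPM in duodenal Veh and between 6606 and 8234 TPM in CORT. The 32 pancreatic acinar genes summed to 690 TPM in Veh1, 42129 in Veh2 and 33413 in Veh3, and to between 703 and 962 TPM under CORT, and limma called 0 of the 31 tested (26 lower at an unadjusted p under 0.05). After removal of these genes from the libraries, and rescaling, the same 2 regulators were called in the duodenum, with Tsc22d3 at 1.98 on the log2 scale. This step only rescales the other genes, and cannot take out regulator transcripts that came from acinar cells. The part of acinar and other cells in the regulators' values was not tested. In whole tissue, fewer cells of a type and less RNA per cell cannot be told apart.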

How the data were processed

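Liver and duodenum libraries of CORT- and Veh-treated mice, 3 per group, were grouped by the sample labels. Reads were trimmed by the authors (SeqPrep, Sickle), mapped with HISAT2, assembled with StringTie and quantified with RSEM. They deposited 1 table of TPM for each tissue, with a column for every library. The submitters' processing notes name GRCm39, and the annotation release and tool versions are not given in the sources used here. TPM sums to between 983327 and 997319 per library, so read depth cannot be recovered and counting error is unknown. In each tissue every CORT library sums slightly lower than every Veh library. In the liver the sums are 983327 to 988077 in CORT and 996218 to 996427 in Veh.

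The plan was limma for TPM, or a count model had the values been counts, so limma was used. From the TPM values log2(TPM + 1) was computed, which understates changes of low genes. Genes averaging 1 TPM or more in one of the groups were kept. Each tissue had its own fit on treatment, made in R 4.3.3 by limma 3.58.1 (lmFit, then eBayes with trend), with Benjamini-Hochberg adjustment over all genes tested. The tissue difference was a treatment by tissue term over the 12 libraries, for genes averaging 1 TPM or more in any of the 4 groups. Adjusted p-values are limma's. The fits were tested on simulated data.

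The regulators and all gene lists were chosen with earlier results of these data known. Named were all 9 regulators, Fkbp5, Per1, Nr3c1, at most 4 called genes per list and tissue by adjusted p, and the 3 genes most like Tsc22d3, Sgk1 and Klf9. Alternatives were a pseudocount of 0.1, no filter, the replicate number as a block, scaling by the median of ratios, both tissues in 1 fit, removal of acinar genes, unadjusted p-values, a call without the fold limit, and leaving out each library. Leaving out Veh3 of both tissues was chosen after seeing the data. Promoters came from RefSeq's table (GRCm38.p6, 8 of 9 regulators matched) and were used for sequence only.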

Additional observations from a re-analysis of the deposited data

Results flagged for a closer look

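The response to CORT differed between the tissues for 12 of 37 named genes, none of them one of the 9 regulators, by the treatment by tissue term in limma over the 12 libraries (adjusted p of 0.05 or less), against 3.61% of all genes tested. Most of the other 28 named genes were chosen because they were called in 1 tissue, so a high count was built into the choice, and it is not set against that of the regulators. Hif3a was tested only through its duodenal CORT group. Values are the log2 fold change in the duodenum minus that in the liver. Among glucocorticoid-induced genes they were -5.25 for Cdkn1a (adjusted p = 2.84e-05), 1.97 for Pdk4 (0.0416) and 1.56 for Hif3a (0.0405). Among genes near the regulators they were 1.94 for Hsd11b2 (0.00115), -1.46 for Nedd4l (0.00813) and 1.13 for Scnn1a (0.0271). Nedd4l had log2 fold changes of 1.01 in the liver and -0.45 in the duodenum, and Scnn1a -0.66 and 0.47. Hsd11b2 was at or below 0.06 TPM in every liver library. The immediate early genes Egr1 and Ier2 differed by 3.65 (adjusted p = 0.0497) and 1.04 (0.0370), with log2 fold changes of -3.57 and -1.11 in the liver and 0.08 and -0.07 in the duodenum. The clock genes Arntl and Bhlhe40 differed by -2.00 (adjusted p = 0.0308) and 0.97 (0.0483). The cell markers Clec4f and Stab2 differed by 3.00 (adjusted p = 0.00509) and -1.22 (0.0119). Groups of 3 libraries are too small for a check of single outlying samples.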

How the results depend on the processing

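Of the 9 regulators, 4 were called in the liver and 2 in the duodenum. These counts were 1 and 1 with no filter on low values, where more genes are tested. They were 7 and 5 with unadjusted p-values and the fold limit kept, at which 1808 of 11699 and 1395 of 13607 genes were called. Calls in either direction are counted here, and the 7 in the liver held Zfp36, which was lower. Leaving out 1 library gave 1 to 4 in the liver and 1 to 3 in the duodenum. The counts over all genes moved too, to between 247 and 831 in the liver, against 810 with all libraries. In the duodenum they were between 66 and 237, against 292. Zbtb16 was among the called in each of these fits. With both tissues fitted together the counts were 4 and 3, beside 1286 and 661 of 14806 genes. In that fit Tsc22d3 was called in the liver and Sgk1 in the duodenum, while Sgk1 was not called in the liver. With the median of ratios the liver count was 3, without Ddit4, beside 1011 of 11654 genes. The same-numbered CORT and Veh libraries did not deviate together (correlations -0.120 to 0.038 in the liver and -0.004 to 0.073 in the duodenum). With 3 libraries per group, such correlations cannot decide whether the numbers pair these libraries. Between liver and duodenum, same-numbered libraries had correlations of 0.102, 0.034 and -0.016 in Veh and 0.035, -0.133 and -0.101 in CORT. Nor can these decide whether such libraries came from the same mouse. With the replicate block the liver count was 3 (Tsc22d3, Ddit4, Zbtb16) and the duodenal count 0 (Zbtb16, adjusted p = 0.0516). No tissue difference was called, but 1 was at unadjusted p (Zfp36), as were 2712 of 14806 genes, and leaving out 1 library gave 0 to 1 (Sgk1). Without Veh3 of both tissues the count was 0, beside 173 of 14837 genes.

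Small values changed sign. Klf15 in the liver was -0.0596 with the median of ratios. The tissue difference of Errfi1 was -0.0289 with acinar genes removed and -0.15 without Veh3 of both tissues, and that of Tsc22d3 -0.22 in the latter. When 1 library was left out, the log2 fold change of Klf15 in the liver ran from -0.16 to 0.29, of Klf9 in the duodenum from -0.0565 to 0.33 and of Zfp36 in the duodenum from -0.0551 to 0.27. The tissue differences then ran from -0.34 to 0.28 for Errfi1, from -0.40 to 0.52 for Tsc22d3 and from -0.00994 to 0.56 for Zbtb16. With a pseudocount of 0.1 the Zbtb16 difference kept its sign but was larger, at 1.35 (limma adjusted p = 0.369). The cause was not tested. Over all genes tested, the count called fell from 810 to 283 in the liver and from 292 to 52 in the duodenum with no filter, and to 307 and 62 with the replicate block. With 3 libraries per group and unknown depth, a call near the threshold rests on single libraries.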
